A study of Mus musculus with 15 samples.

Results

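Esrrb, Esrra, Rorb and Nr1d1 encode orphan nuclear receptors, and their binding sites for the rod transcription factor NRL in the developing mouse retina are described here. The members were chosen by name: every row of the deposited peak quantitation table whose gene symbol was 1 of the 4 was taken, which gave 10 of 8996 peaks. Esrrb had 6 of them, Rorb 2, and Esrra and Nr1d1 1 each. NRL occupancy was measured by CUT&RUN, in which protein A fused to micrococcal nuclease is brought to an antibody and cuts out the DNA around the bound protein. Retinas of C57BL/6J mice were taken at P2, P4, P10 or P28 (P for postnatal day), and each experiment used 250000 dissociated cells and an anti-NRL antibody. The labels give no mutation, drug or control antibody, so age was the only factor. Each age had 2 libraries with values: replicates 1 and 4 for P10, and replicates 3 and 4 for the other ages. Whether these came from separate animals is not in the labels, and p-values therefore refer to the spread of these libraries alone, which may be technical.

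NRL is the basic leucine zipper factor that commits postmitotic precursors to the rod fate, and it acts with the homeobox factor CRX and the nuclear receptor NR2E3. Nuclear receptors bind DNA through zinc fingers, often at copies of the motif AGGTCA, and recruit coactivators or corepressors. A receptor is called an orphan when it was named before any natural ligand was known. ERR-beta (Esrrb) is an estrogen-related receptor that rods express and that is needed for the survival of rods, ERR-alpha (Esrra) is its relative that works with PGC-1 coactivators on mitochondrial genes, ROR-beta (Rorb) acts upstream of Nrl in rod formation, and REV-ERB-alpha (Nr1d1) is the haem-binding repressor of the circadian clock. Rods in the mouse retina are born mostly around birth and build their outer segments in the following weeks.

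Because the dissociated cells were a whole retina, a smaller share of rods and less NRL bound per rod cannot be told apart in any value that follows. All 8 of 8 rod markers examined, among them Gnat1, Pde6b, Cnga1, Nr2e3, Nrl, Sag and Prph2, had at least 1 peak. Of 5 Müller glia markers, 5 markers of microglia and vessels and 5 markers of pigment epithelium, 0 had a peak. These counts tell where NRL peaks lay and do not measure the share of any cell type. The libraries held 49430 to 227692 reads in peaks, which was 0.940% to 3.08% of the scale behind their normalised values. P10 had the highest share (2.84% and 3.08%) and P2 the lowest (0.940% and 0.986%), and the P4 replicates differed, at 1.09% for replicate 3 and 2.15% for replicate 4. These shares move with age in the same direction as many peaks do, and their part in the results was not tested beyond a fit in which each library was centred on its own median.

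Of the 4 genes, 3 had a peak over a RefSeq start site. The DNA upstream of those starts and inside the peaks is shown, up to 250 bases from the start, because the NRL libraries covered it. Upstream here refers to that start and not to the whole gene. The RefSeq gene model of Esrrb begins at 86361117, so all its printed bases lie inside the model. That of Esrra, on the minus strand, reaches out to 6922048, beyond the start at 6921808. Most printed Esrra bases thus lie inside its model, and the Esrra peak covers this outer end too. It is credited to RefSeq on GRCm38.p6 and read 5′ to 3′ on the strand of the gene. The Esrra and Rorb peaks reach further upstream, to 6922203 and 19111577, and that part was neither shown nor searched for motifs.
Esrrb, chr12:86421460-86421643: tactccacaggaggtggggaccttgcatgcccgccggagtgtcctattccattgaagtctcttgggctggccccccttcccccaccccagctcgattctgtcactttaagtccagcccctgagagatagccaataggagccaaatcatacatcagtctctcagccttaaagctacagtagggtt
Esrra, chr19:6921809-6922058: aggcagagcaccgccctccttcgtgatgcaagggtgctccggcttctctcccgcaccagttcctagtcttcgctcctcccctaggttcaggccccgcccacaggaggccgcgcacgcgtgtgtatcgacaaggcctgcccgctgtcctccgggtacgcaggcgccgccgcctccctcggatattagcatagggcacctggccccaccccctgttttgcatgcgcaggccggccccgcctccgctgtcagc
Rorb, chr19:19111197-19111446: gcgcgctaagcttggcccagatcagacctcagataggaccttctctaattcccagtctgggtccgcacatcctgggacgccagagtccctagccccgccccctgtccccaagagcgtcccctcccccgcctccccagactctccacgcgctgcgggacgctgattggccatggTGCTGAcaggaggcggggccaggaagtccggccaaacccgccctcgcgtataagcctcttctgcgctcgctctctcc
The capitals in the Rorb sequence mark TGCTGA, the core motif of NRL and other Maf factors. The Esrrb sequence is on the plus strand, and those of Esrra and Rorb are on the minus strand. GC content was 54.3% for Esrrb, 68.4% for Esrra and 66% for Rorb.

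5 motifs were searched on both strands of RefSeq windows of 300 bases, from 250 bases before a start to 50 after it: TGCTGA, the AP-1 core TGACTCA, the CRE core TGACGTCA, the CRX motif TAATCC and the nuclear receptor motif AGGTCA. The first of these can share its last bases with a following AP-1 core. The 4 genes had 6 such windows, 3 of them with a peak over the start, and the only match to any of the 5 motifs was the TGCTGA of Rorb. It lay 77 to 72 bases upstream of the Rorb start. The authors' summit of that peak lay 85 bases upstream of the start at P10 and 59 at P28, which is 8 and 18 bases from the first base of the motif. TGCTGA occurred in 19.5% of all 32851 RefSeq windows and in 16.7% of the 4129 with a peak over the start, so a match in 1 window is common. The corresponding shares were 5.20% and 3.03% for TGACTCA, 1.79% and 5.45% for TGACGTCA, 7.06% and 6.71% for TAATCC, and 16.3% and 10.9% for AGGTCA. No sequence was at hand for the peaks inside introns, among them those of Esrrb intron 5 and Rorb intron 1, which had the highest mean levels of the 10.

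The peaks of Esrrb were spread over its RefSeq gene model on chromosome 12, which is 160.512 kb long. RefSeq gives 2 starts. The first, at 86361117, had no peak within 60.343 kb, while the second, at 86421644, lay in the promoter peak at 86421460-86421720. The authors' annotation puts the remaining peaks in intron 1 of 6 (86453623-86454086), intron 2 (86483349-86483594), intron 5 (86507673-86508054), intron 6 (86516816-86517034) and the last exon, 7 of 7 (86518862-86519063). The centre of the intron 5 peak lay 86.2 kb beyond the second RefSeq start, and the nearest other peak was 8.761 kb away, in intron 6. By the authors' annotation the intron 5 peak lay only 3264 bp from the start of the transcript assigned to it. That start is not 1 of the 2 RefSeq starts. The nearest start of another gene, Gm40483, lay 60418 bp from the centre of the promoter peak, and further from the other Esrrb peaks.

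**Figure D1:**
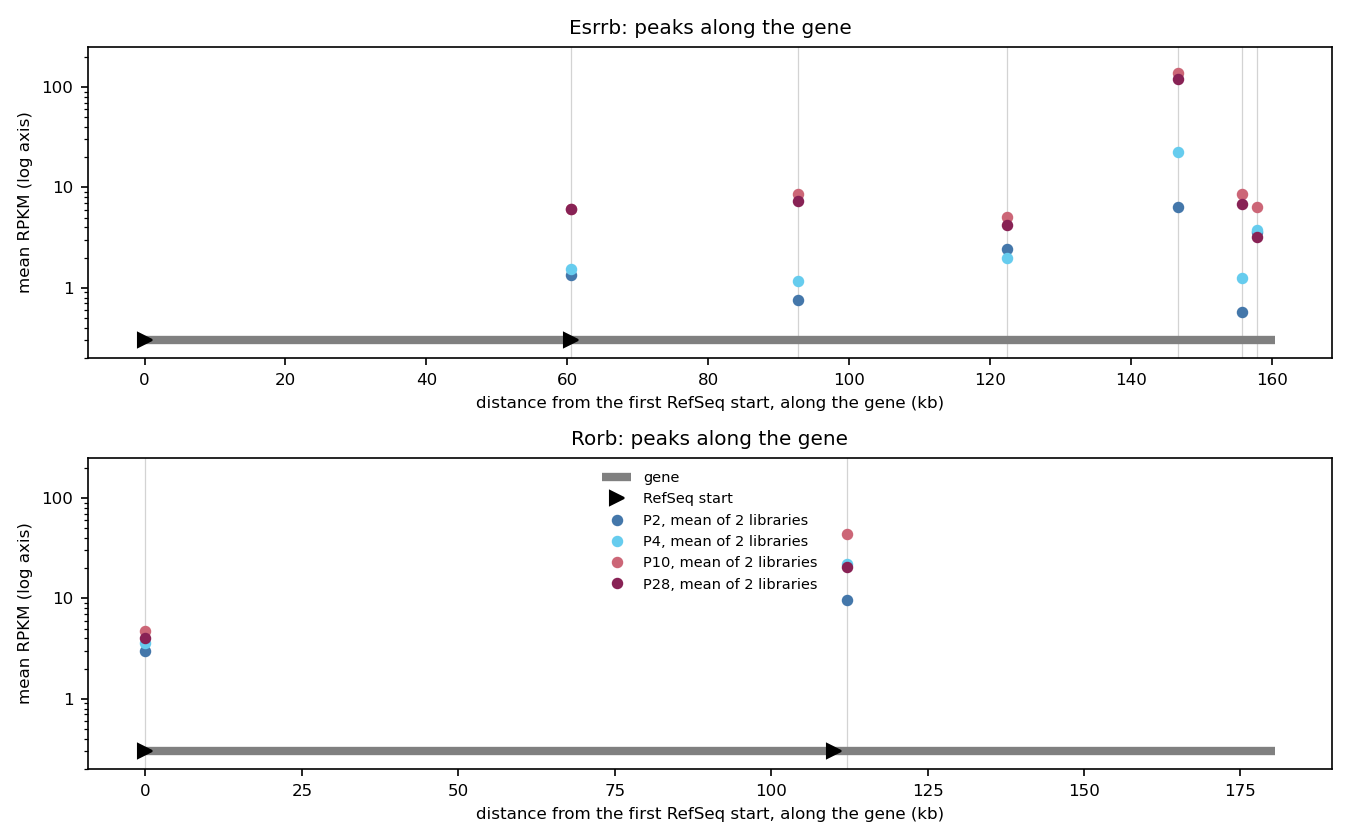
Position and level of the peaks of Esrrb (6 peaks, top) and Rorb (2 peaks, bottom): distance from the first RefSeq start along the gene in kb against mean RPKM of 2 libraries on a log axis, with 1 point per peak and age, vertical lines at peak centres, a grey bar for the gene and black triangles for RefSeq starts. The Esrrb intron 5 peak stands above the other Esrrb peaks at every age, and the first Esrrb start has no peak nearby.

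Signal at each peak was taken as RPKM, reads per kilobase of the peak divided by 1 scale per library. The unit was inferred from the values. How the authors set the scales, and whether the spike-in DNA of the protocol entered them, is not known, which bears on every comparison between ages. The intron 5 peak of Esrrb had 5.93 and 6.97 RPKM in the P2 libraries, 12 and 32.9 in those of P4, 158.4 and 115 in those of P10, and 105 and 133 in those of P28. Both P10 and both P28 libraries lay far above the P2 and P4 libraries, and the P10 and P28 libraries overlapped. In order of age, means ± SD were 6.45 ± 0.73, 22.4 ± 14.8, 137 ± 30.7 and 119 ± 19.7 (n = 2 each). In rank among the 8996 peaks it stood at 828 and 674 on day 2, 229 and 164 on day 4, 14 and 18 on day 10, and 1 and 2 on day 28. In P28 replicate 3 it was followed by a Msi1 intron (103 RPKM), and in P28 replicate 4 only the Msi1 peak (137) was higher.

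The rank of the intron 5 peak went up between P10 and P28 while its level did not pass a test of change between those ages. Its log2 change from P10 to P28 was -0.19 ± 0.56 (SE; adjusted p = 0.830, limma), against a median of -0.69 over all peaks. The increase from P4 to P10 was called, with a log2 change of 2.70 ± 0.56 (adjusted p = 0.0031, limma), as was the increase from P2 to P28, with 4.00 ± 0.56 (adjusted p = 0.000112, limma). In recovered reads, 32 at P2 and 569 at P28 gave a ratio of 18.7 after scaling (95% interval 13.1 to 27.6, counting error only). From P2 to P4 its log2 change was 1.5 ± 0.56 (adjusted p = 0.227, limma), although both P4 libraries lay above both P2 libraries, and without P4 replicate 3 it was called (2.19, adjusted p = 0.0178). The P28 against P2 call held in 14 of 14 alternative settings. The P10 against P4 call was lost in 4 of 14, with adjusted p from 0.0584 to 0.298, among them the fit without P10 replicate 1 (adjusted p = 0.0796), and was kept when each library was centred on its median (log2 change 1.99, adjusted p = 0.0078).

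The other Esrrb peaks were much lower. At the intron 1 peak RPKM was 0.271 and 1.23 in the P2 libraries, 0.821 and 1.54 in those of P4, 10.9 and 6.18 in those of P10, and 8.01 and 6.70 in those of P28. The P10 and P28 libraries lay above all P2 and P4 libraries. At the promoter peak RPKM was 0.483 and 2.19 on day 2, 1.46 and 1.64 on day 4, 7.85 and 4.30 on day 10, and 6.53 and 5.65 on day 28, again with the later ages apart from the earlier ones. These values rest on few reads: over both libraries the promoter peak had 4, 6, 22 and 20 reads in order of age, and the intron 1 peak had 4, 8, 55 and 43. The intron 6 peak had 1.15 and 0 RPKM in the P2 libraries, 0.580 and 1.96 in those of P4, 10.8 and 6.27 in those of P10, and 8.49 and 5.23 in those of P28, from 2, 4, 26 and 19 reads.

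All of these 3 peaks were called higher at P10 than at P4. The authors' peak lists hold the promoter and intron 6 peaks at P10 only, and the intron 1 peak at P10 and P28 only. Peaks listed only at ages where they are high lean by selection to a gain at those ages, and the size of this was not tested. The log2 change was 2.10 ± 0.48 for intron 1 (adjusted p = 0.00545), 2.10 ± 0.51 for intron 6 (adjusted p = 0.00778) and 1.43 ± 0.49 for the promoter (adjusted p = 0.0449, all limma). The ratio of scaled reads was 7.12 for intron 1 (95% interval 3.37 to 17.3), 6.73 for intron 6 (2.34 to 26.6) and 3.80 for the promoter (1.49 to 11.5). The P28 against P2 calls of the 3 were log2 changes of 2.31 ± 0.48 for intron 1 (adjusted p = 0.00315), 2.39 ± 0.51 for intron 6 (adjusted p = 0.00356) and 1.70 ± 0.49 for the promoter (adjusted p = 0.0237, all limma). For intron 6 that is 2 reads against 19, a scaled ratio of 9.98 (95% interval 2.41 to 88.3). Of 14 alternative settings, the P10 against P4 call was lost in 5 for intron 1, 6 for intron 6 and 8 for the promoter. With limma-voom on the reads intron 1 and intron 6 were still called, but the promoter was not (adjusted p = 0.0574). When each library was centred on its median, none of the 3 P10 against P4 calls held: adjusted p was 0.0698 for intron 1 and 0.0894 for intron 6, and 0.421 for the promoter. Without P10 replicate 1 (adjusted p of 0.109, 0.120 and 0.336 in the same order) or P4 replicate 3 (0.0874, 0.155 and 0.216) none of the 3 was called, and the promoter was not called without P4 replicate 4 (0.0627) or P10 replicate 4 (0.0914) either. From P2 to P28 the promoter was not called without P2 replicate 3 (0.207) or P28 replicate 3 (0.0864), nor intron 6 without P2 replicate 4 (0.0533). With libraries centred on their medians the promoter was not called in that comparison either (log2 change 1.12, adjusted p = 0.153), and 3 of the 10 member peaks were.

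The remaining Esrrb peaks, in intron 2 and exon 7, passed no test with all 8 libraries. The intron 2 peak ran from 1.02 RPKM in P2 replicate 3 to 5.12 in P10 replicate 1, and its P2 libraries (1.02 and 3.87) spanned most of that range; without P4 replicate 4 its change from P4 to P10 was called (log2 change 1.59, adjusted p = 0.0487). The exon 7 peak had 4.36 and 2.83 RPKM on day 2, 2.51 and 4.95 on day 4, 5.46 and 7.41 on day 10, and 1.53 and 4.86 on day 28, and P28 overlapped P2. The intron 5 peak held 58.1% and 50.0% of all reads in Esrrb peaks in the P2 libraries, 73.5% and 79.3% in those of P4, 83.7% and 84.4% in those of P10, and 82.5% and 86.6% in those of P28. Its share was lowest in the P2 libraries, where all Esrrb peaks together held only 31 and 28 reads. The share did not overlap between P2 and P4 or between P4 and P10, but how often this occurs at other genes was not counted.

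**Figure D2:**
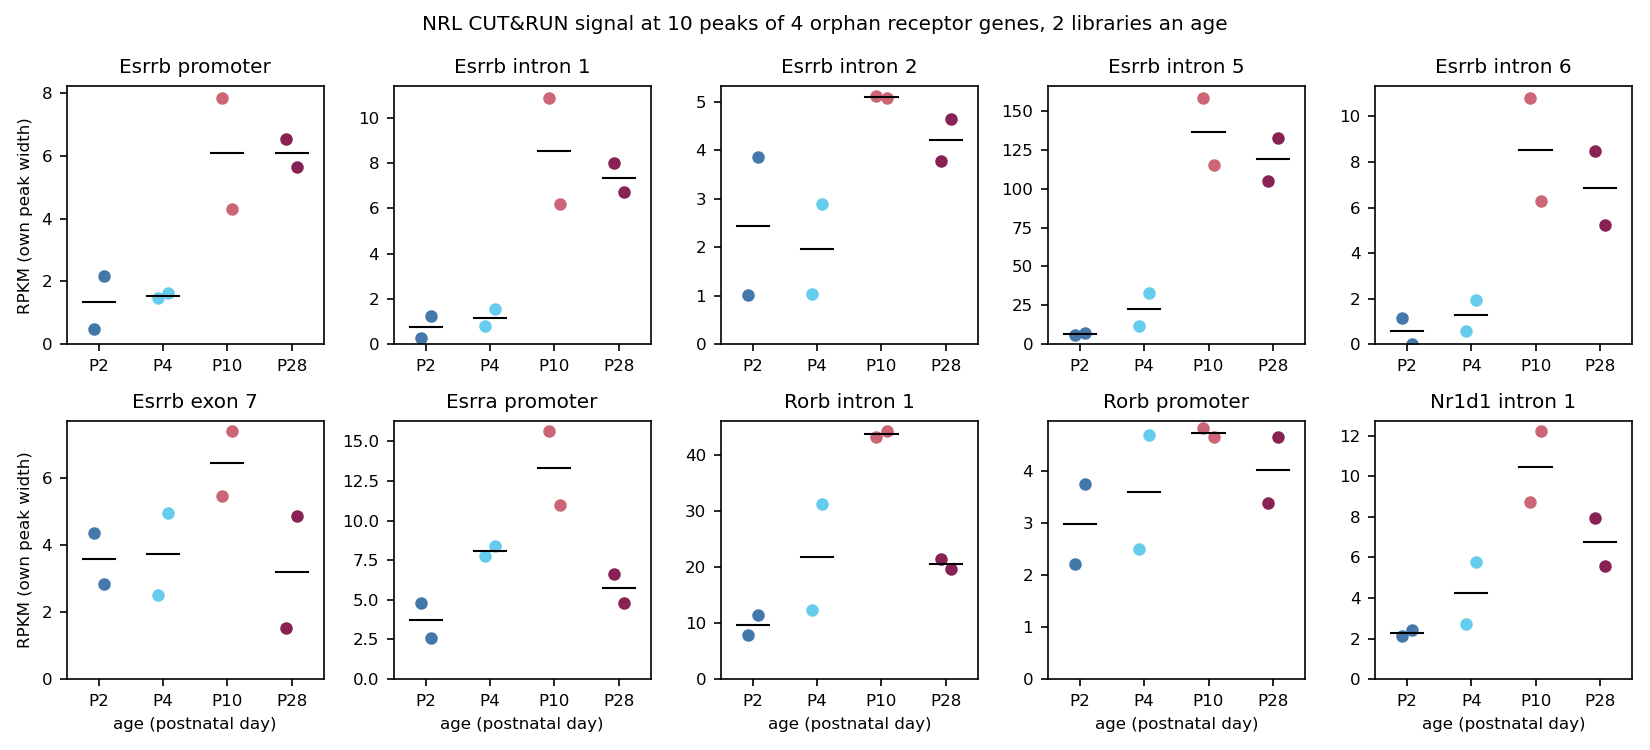
RPKM of each of the 10 peaks in the 8 libraries by age, 1 panel per peak, with points for libraries and a bar for their mean (n = 2); the vertical scale differs between panels and starts at 0. The Esrrb intron 5 peak goes from below 7 RPKM in both P2 libraries to above 100 in both P10 and both P28 libraries, whereas the Rorb intron 1 and Esrra promoter peaks are highest at P10.

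Rorb had a promoter peak and a second peak deep in the gene, both on chromosome 19. The promoter peak (19111122-19111577) covered the RefSeq start at 19111196. The other (18998908-18999391) is placed by the authors in intron 1 of 9. It lay 1709 bp from the start site that the authors assigned to it and 1.726 kb from a second RefSeq start of Rorb, at 19001117 inside the gene. The 2 Rorb peaks were 111.73 kb apart, with no other peak of the table between them.

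At the Rorb intron 1 peak RPKM was 7.81 and 11.4 on day 2, 12.3 and 31.3 on day 4, 43.3 and 44.3 on day 10, and 21.4 and 19.6 on day 28. The P10 libraries were the highest and close to each other, the P4 libraries were far apart, and P28 fell within the P4 range. Its means ± SD were 9.60 ± 2.54, 21.8 ± 13.4, 43.8 ± 0.735 and 20.5 ± 1.29 in order of age (n = 2 each). No change between ages was called: log2 changes were 0.99 ± 0.56 from P2 to P4 (adjusted p = 0.395), 1.11 ± 0.56 from P4 to P10 (0.155), -1.06 ± 0.56 from P10 to P28 (0.169) and 1.04 ± 0.56 from P2 to P28 (0.201, all limma). The spread of the P4 libraries decides several of these. Without P4 replicate 4 the P4 to P10 change was 1.75 (adjusted p = 0.00644), without P4 replicate 3 the P2 to P4 change was 1.63 (adjusted p = 0.0256), and without P4 replicate 3 or 4 the change from P10 to P28 was called at an adjusted p of 0.0222 or 0.0224 and that from P2 to P28 at 0.0362 or 0.0364. Its rank among all peaks was between 110 and 460 in each of the 8 libraries.

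The Rorb promoter peak varied less, from 2.21 RPKM in P2 replicate 3 to 4.84 in P10 replicate 1, and the libraries overlapped in all 4 comparisons of age, with adjusted p of 0.591 or more (limma). The ratio of the intron 1 peak to the promoter peak was 3.53 and 3.04 in the P2 libraries, 4.92 and 6.66 in those of P4, 8.95 and 9.53 in those of P10, and 6.31 and 4.20 in those of P28. In each library the peak near the second RefSeq start was thus the higher one, and the ratio was greatest in the 2 P10 libraries. The promoter peak had only 17, 24, 31 and 23 reads over both libraries in order of age. A few reads can therefore move the ratio, and its change with age was not tested.

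Esrra, a compact gene of 11.072 kb on chromosome 19, had 1 peak, over its promoter (6921761-6922203, start at 6921808). Its RPKM was 4.83 and 2.58 on day 2, 7.74 and 8.38 on day 4, 15.7 and 11 on day 10, and 6.64 and 4.80 on day 28. Both P10 libraries were above those of every other age, and P28 overlapped P2. The log2 change was 0.99 ± 0.53 from P2 to P4 (adjusted p = 0.372), 0.64 ± 0.53 from P4 to P10 (0.378) and -1.08 ± 0.53 from P10 to P28 (0.135), and 0.54 ± 0.53 from P2 to P28 (0.483, all limma), and none was called. The change from P10 to P28 had the smallest unadjusted p of the 10 peaks in that comparison, 0.0497.

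Nr1d1 had 1 peak on chromosome 11 (98773803-98774271), in intron 1 of 7 and 1062 bp from the start by the authors' annotation. It was 1.106 kb from the RefSeq start at 98775377, near which the gene Gm31862 starts on the opposite strand (98775411), and a peak, which has no strand, cannot be assigned to either by position alone. RPKM was 2.15 and 2.43 in the P2 libraries, 2.71 and 5.78 in those of P4, 8.74 and 12.2 in those of P10, and 7.93 and 5.59 in those of P28. Each P10 library lay above each P4 library, and P28 below P10. The log2 change was 1.18 ± 0.52 from P4 to P10 (adjusted p = 0.107) and 1.22 ± 0.52 from P2 to P28 (adjusted p = 0.111, limma), and neither was called. Without P4 replicate 4 the P4 to P10 change was called (adjusted p = 0.0216), and with limma-voom on the reads it was at 0.0498; without P4 replicate 3 or 4 the P2 to P28 change was called (0.0447 or 0.0438).

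The 10 peaks were then counted beside all peaks of the table. All 10 were in the authors' P10 peak list, against 83.2% of table peaks, and 1 was in the P2 list, against 13.5%. Members listed only at later ages lean by selection to a gain at those ages, so the counts below are not free of it. From P2 to P4, 0 of 10 member peaks and 0% of all 8996 peaks were called; 1295 peaks were higher and 70 lower at an unadjusted p under 0.05, the smallest adjusted p was 0.0557 (limma), and limma-voom called 8. Both P4 libraries lay above both P2 libraries for 4 of 10 member peaks, against 40.1% of all peaks. From P4 to P10, 4 of 10 member peaks were called higher and 0 lower, against 15.6% higher and 1.51% lower of all peaks, and the 4 were all in Esrrb. Both P10 libraries lay above both P4 libraries for 9 of 10, against 58.9%. The median log2 change of the members was 1.15 against 0.73 for all peaks, and the 6 Esrrb peaks share 1 gene and are not independent.

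From P10 to P28, 0 of 10 were called (the smallest adjusted p was 0.135, and 1 peak, Esrra, had an unadjusted p under 0.05), against 1.29% of all peaks higher and 20.7% lower. Both P28 libraries lay below both P10 libraries for 5 of 10 (Esrrb intron 2 and exon 7, Esrra, Rorb intron 1 and Nr1d1), against 61.7%. The member median was -0.25 against -0.69 over all peaks. From P2 to P28, 4 of 10 were called higher and 0 lower, against 9.64% and 3.00% of all peaks, and 6 of 10 lay above, against 52.5%. The member median was 1.13 against 0.57. Since the 4 called peaks in both the P10 against P4 and the P28 against P2 comparisons are the same Esrrb peaks, the result is one of a single gene.

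**Figure D3:**
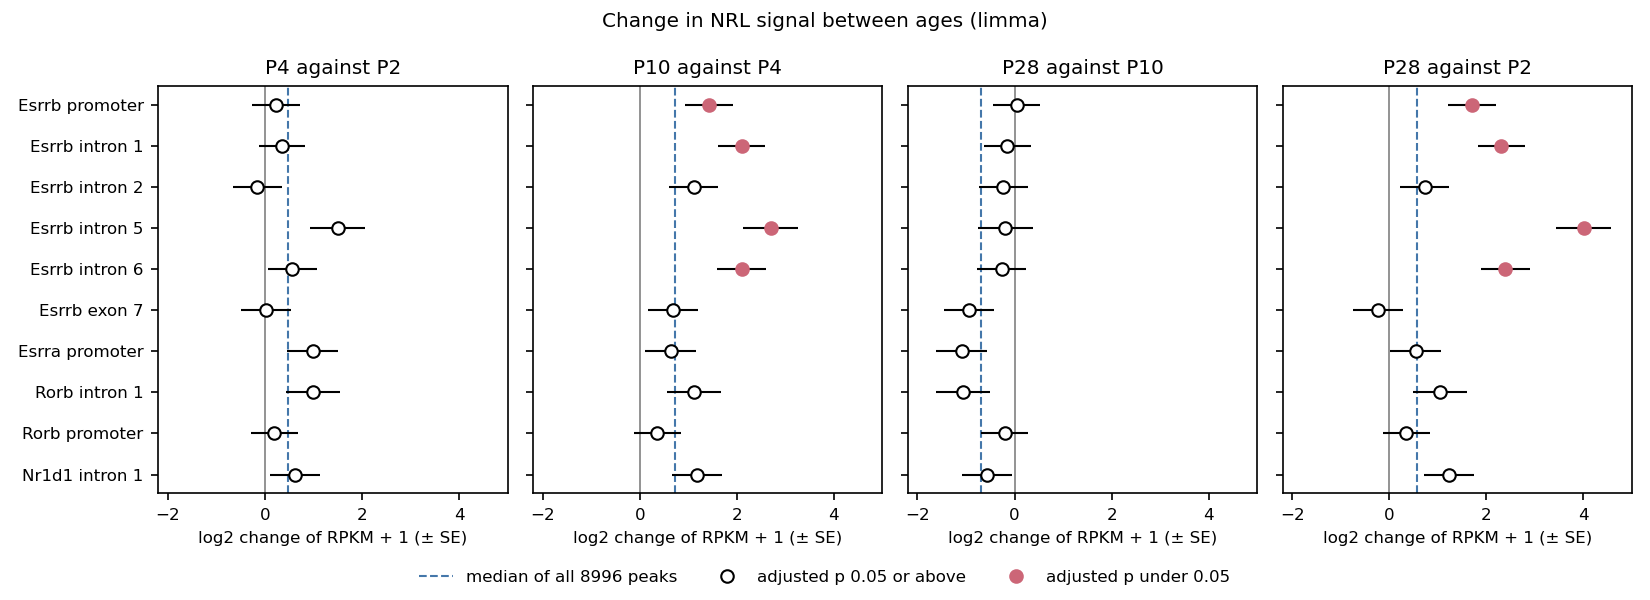
Log2 change ± SE of the 10 peaks in 4 comparisons of age (limma, 8 libraries), with filled points for peaks called at an adjusted p under 0.05, a solid line at 0 and a dashed line at the median of all 8996 peaks. The 4 Esrrb peaks in the promoter and introns 1, 5 and 6 are called in P10 against P4 and in P28 against P2, and no member peak is called in the other comparisons.

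The deposited peak lists, 1 per age and made by the authors after a reproducibility step, held 1 (P2), 3 (P4), 10 (P10) and 5 (P28) of the member peaks. The lists had 1221, 3161, 7520 and 3482 peaks, and 13.5%, 35.0%, 83.2% and 38.6% of all table peaks were in them, and the counts of members are read against those shares. The only member in the P2 list was the Rorb intron 1 peak, at rank 119 of 1221 by the authors' signal. It was in all 4 lists, at rank 31 of 3161 at P4, 67 of 7520 at P10 and 58 of 3482 at P28. The Esrrb intron 5 peak was in 3, at rank 98 at P4, and then at rank 2 at both P10 and P28, below a Ric8b peak at P10 and an Optn peak at P28. Esrra was at rank 1010 of the P4, 2395 of the P10 and 2025 of the P28 list. The Esrrb promoter, intron 2, intron 6 and exon 7 peaks and the Nr1d1 peak were in the P10 list only. Ranks in lists of unlike length show no change with age.

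The authors' summits were compared for peaks in several lists. The summits of the Rorb intron 1 peak lay within 17 bp over 4 lists, and those of Esrrb intron 5 within 14 bp over 3 lists. The Esrra promoter had the widest range, 109 bp over 3 lists, with 61 bp for Esrrb intron 1 and 26 bp for the Rorb promoter over 2 lists each.

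**Figure D4:**
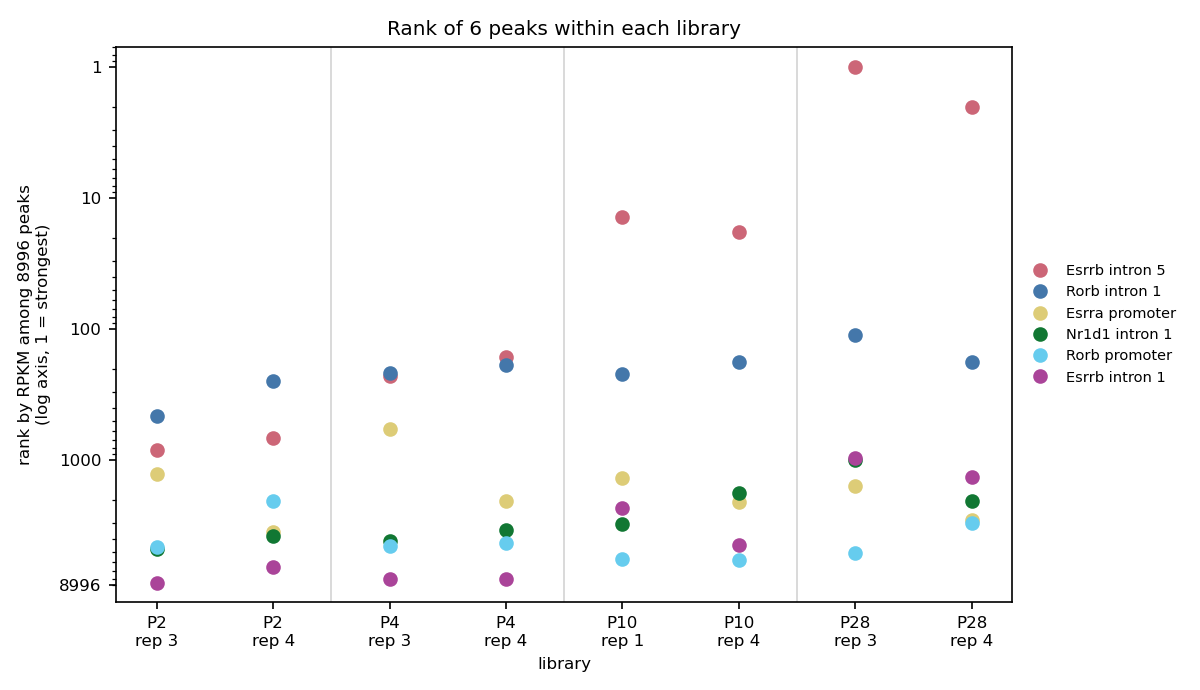
Rank by RPKM among 8996 peaks, on a log axis with rank 1 at the top, in each of the 8 libraries, with 1 point per library for 6 of the 10 peaks (colours). The Esrrb intron 5 peak goes from 828 and 674 at P2 to 1 and 2 at P28, and the Rorb intron 1 peak stays between 110 and 460.

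The pathway around these receptors was followed in 3 lists of genes, drawn up by gene family or function with earlier results of these data known. Of 45 other nuclear receptor genes 19 had a peak, 31 peaks in all. None was called from P2 to P4. From P4 to P10, 4 of 31 rose, in Ppara, Ppard (receptors for fatty acids), Rora and Rxra, and 0 fell, beside 15.6% higher and 1.51% lower over all peaks; the Rxra peak went from 5.12 to 24.7 mean RPKM (log2 change 2.25 ± 0.56, adjusted p = 0.00903). From P10 to P28, 1 rose (Esr1) and 7 fell, among them peaks of Nr2e3 (2 peaks, a partner of NRL), Ppard, Rara, Rora and Rxra, beside 1.29% higher and 20.7% lower over all peaks; a Nr2e3 exon 4 peak went from 39.4 to 7.59 mean RPKM (-2.29 ± 0.56, adjusted p = 0.00605, all limma). From P2 to P28, 2 rose, in Nr3c2 and Rara, beside 9.64% over all peaks. These counts are near the shares over all peaks. The list medians were 0.47, 0.77, -1.11 and 0.30 in the 4 comparisons, against 0.48, 0.73, -0.69 and 0.57 over all peaks. With libraries centred on their medians 1 rose and 2 fell from P4 to P10, 1 rose and 4 fell from P10 to P28, and 0 rose and 2 fell from P2 to P28.

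Among 18 clock genes 10 had a peak, 19 peaks in all. From P4 to P10, 4 of 19 rose, in the output factor Dbp, in Per1, a repressor of the clock loop, and in Tef, another output factor (2 peaks), and from P10 to P28 the Dbp and both Tef peaks fell (3 of 19). Over all peaks 15.6% were called higher in the first of these comparisons and 20.7% lower in the second, so the counts are near the background. The Dbp promoter peak went from 1.88 ± 1.02 at P4 to 15.0 ± 2.91 at P10 and 1.45 ± 0.057 at P28 (mean RPKM ± SD). The Tef intron peak went from 22.3 ± 4.12 at P10 to 0.679 ± 0.961 at P28. Both peaks (45708073-45708182 and 81814093-81814206) were narrower than the narrowest member peak, of 202 bp. Their low values therefore rest on very few reads, and the size of these swings is uncertain. From P2 to P28, 3 rose, 2 in Bhlhe41 and another Dbp peak, beside 9.64% over all peaks. The list medians were 0.41, 0.91, -0.63 and 0.57, against 0.48, 0.73, -0.69 and 0.57 over all peaks. Centred, 1 rose and 1 fell from P4 to P10, 0 and 3 from P10 to P28, and 2 and 1 from P2 to P28.

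Of 16 coregulator genes 11 had a peak, 19 peaks in all. From P4 to P10, 3 of 19 rose, in the acetyltransferase gene Crebbp (2 peaks) and the coactivator gene Ncoa2, beside 15.6% over all peaks. From P10 to P28, 3 fell, among them peaks of Ncoa2 and of the corepressor gene Nrip1, beside 20.7% over all peaks, so neither count stands apart from the background. The Ncoa2 intron peak went from 19.7 at P4 to 56.7 at P10 and 5.70 at P28 in mean RPKM. The list medians were 0.42, 0.74, -0.70 and 0.51, close to those over all peaks. Centred, none was called from P4 to P10, and 1 rose and 2 fell from P10 to P28.

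The likeness of other peaks was ranked for the highest peak of each gene by Pearson's r of log2(RPKM + 1) over the 8 libraries, among 4498 peaks at or above the median level, and it describes these libraries only, since the points share depth and scale. For Esrrb intron 5 the most alike were peaks of Zbtb38 (r = 0.997) and Calcoco1 (0.995), and 407 peaks were above 0.9. For Rorb intron 1 they were Snx32 (0.994), Msra (0.993) and E230016M11Rik (0.993), with 952 above 0.9. For the Esrra promoter they were Mark4 (0.980), Cited2 (0.973) and Aktip (0.971), with 242, and for Nr1d1 they were Cplx4 (0.986), Fam161b (0.985) and St3gal1 (0.985), with 632.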

How the data were processed

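CUT&RUN libraries were made with an anti-NRL antibody, per the labels' protocols. Per the submitters' processing notes the tools were bedtools 2.29.0, MACS2 2.2.5, Bowtie2 2.3.5.1, Trimmomatic 0.38, Picard 2.20.8 and SAMtools 1.9, with no role or order, and the mouse build was GRCm38.p6. The authors deposited RPKM for 8996 peaks in 8 libraries, with no unit in the header. The values show that each column divided reads by the width of a peak 39 rows further up than the column before, so whole reads were recovered (100% of values whole within 0.001) and RPKM was rebuilt on the authors' library scale with the width of the peak itself. The deposited lists give a peak signal and a score, the authors' own, used to rank peaks inside 1 list; the caller's settings are not given. Of 15 labelled libraries, 7 were not analysed here.

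Changes in log2(RPKM + 1) were tested with limma 3.58.1 in R 4.3.3 (trend and robust empirical Bayes, 8 libraries in 1 fit, age as factor, 4 residual degrees of freedom, Benjamini-Hochberg over 8996 peaks, call at an adjusted p under 0.05), after a test on simulated data. Every peak of the 4 genes is described; other genes are named only from the fixed lists (called peaks) or as the 3 most alike peaks of each gene's highest peak. A few items are not reported here. Members and lists were chosen with earlier results of these data known. Intervals are exact 95% intervals of read ratios and cover counting error only.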

Additional observations from a re-analysis of the deposited data

How the results depend on the processing

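With 2 libraries an age, most calls depend on the setting. The increase of the Esrrb intron 5 peak from P2 to P28 was called in 14 of 14 alternatives, with log2 changes from 3.42 to 4.37 and adjusted p from 2.6e-11 to 0.00736 (limma). Of the 10 member peaks, 0 were called in P10 against P4 with a pseudocount of 0.1, 2 with RPKM as deposited and 1 with libraries centred on their medians. In P28 against P2, 2 were called with a pseudocount of 0.1 and 1 with RPKM as deposited. Leaving out 1 library gave 0 to 2 in P4 against P2 (2 without P4 replicate 3), 0 to 6 in P10 against P4 (0 without P10 replicate 1, 1 without P4 replicate 3, 6 without P4 replicate 4) and 0 to 1 in P28 against P10 (1 without P4 replicate 3 or 4). Among all peaks P4 against P2 gave 8 calls with a pseudocount of 0.1, 34 with a minimum of 5 reads on average, 8 with limma-voom and 0 to 836 with 1 library left out. P10 against P4 gave 8 with a pseudocount of 0.1, 560 as deposited, 552 centred and 215 to 3040 with 1 left out, P28 against P10 gave 474, 886, 1155 and 507 to 2691, and P28 against P2 gave 336 and 404 with the first 2 settings and 604 to 1650 with 1 left out. In the strongest 1221 peaks of each list, 2 members remained in the P10 and 3 in the P28 list. The cause of these differences was not tested.

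Deviations from the age means of same-numbered libraries correlated only between -0.0128 and 0.0853. With 2 libraries an age both deviations come from the same difference. These values thus cannot settle whether the replicate number marks a pair or a batch. With the number as a replicate block, 0 member peaks were called in P10 against P4, and 69, 183 and 432 of all peaks in P4 against P2, P10 against P4 and P28 against P10. In P28 against P10 the block gave 0.39 for Esrrb intron 1, 0.18 for intron 2, 0.36 for intron 5 and 0.093 for the Rorb promoter, on the log2 scale.

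Other changes of sign touched only values not called. As deposited, the log2 change was -0.13 for Esrrb intron 1 and -0.49 for exon 7 in P4 against P2, and -0.42 for the Esrrb promoter, 0.16 for intron 2 and 0.30 for intron 5 in P28 against P10. Centred, it was -0.24 for the Esrrb promoter, -0.12 for intron 1, -0.46 for exon 7 and -0.28 for the Rorb promoter in P4 against P2, and -0.022 for Esrrb exon 7, -0.070 for Esrra and -0.35 for the Rorb promoter in P10 against P4. Centred, it was 0.036 for Nr1d1, 0.45, 0.37, 0.41 and 0.33 for Esrrb introns 1, 2, 5 and 6 and 0.40 for the Rorb promoter in P28 against P10, and -0.036 for Esrra and -0.23 for the Rorb promoter in P28 against P2. With limma-voom it was -0.089 for Esrrb exon 7 in P4 against P2. With 1 library left out, P4 against P2 ran from -0.32 to 0.78 for the Esrrb promoter, -0.053 to 0.76 for intron 1, -0.79 to 0.48 for intron 2, -0.37 to 0.39 for exon 7 and -0.16 to 0.54 for the Rorb promoter. P28 against P10 ran from -0.32 to 0.42 for the Esrrb promoter, -0.51 to 0.21 for intron 1, -0.42 to 0.039 for intron 5 and -0.62 to 0.082 for intron 6, and P28 against P2 from -0.84 to 0.37 for exon 7. Where an age was left with 1 library, it is assumed to vary like the other ages.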
